A study of Mus musculus with 36 samples.

Results

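Conventional CD4 T cells (Tconv) that had been transferred together with regulatory T cells (Treg) were examined at the ATAC-seq peaks that differed in opposite directions with the loss of each of 2 heterochromatin proteins. Of 71509 peaks, 8303 (11.6%) had a mean signal in HP1α KO cells more than 0.5 log2 units above their wild type and a mean signal in HP1γ KO cells more than 0.5 log2 units below theirs. The signal was log2 CPM, the log2 of reads per M reads in peaks (M, mega) in each library with a prior count of 2, and all 12 libraries with Treg entered the rule. The prior was scaled to library size, as edgeR does, and read as 2 reads in every library the same rule gives 3362 peaks, 3287 of them among the 8303. These 8303 peaks are called opposed peaks below. Since the libraries with Treg chose them, their values there are given as a description without a test. Tests were made in naive cells and in Tconv without Treg, which took no part in the choice.

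Cells were HP1a WT, HP1a KO, HP1g WT and HP1g KO by their labels, written HP1α and HP1γ here, each in 3 conditions with 3 libraries, 36 libraries in all. According to the methods of the study, a floxed Hp1a allele was deleted with CMV-cre, which acts in all tissues, and a floxed Hp1g allele with Cd4-cre, which acts from thymic development on in T cells and in other cells that transcribe Cd4. The controls were littermates, and the mice were sex-matched, 6 to 12 weeks old and of mixed 129/Sv and C57BL/6 background. HP1α controls were Hp1a+/+ mice from crosses between heterozygotes. By the crosses described, HP1γ controls were homozygous for the floxed allele and lacked Cd4-cre. They are called wild type here, as in the labels. HP1γ KO and wild type thus also differ in the Cd4-cre transgene. Its part in the HP1γ differences, and in comparisons between the lines, was not tested. Naive cells were CD4+ CD62L+ CD44-/low cells from spleen, profiled without transfer. Tconv were Vβ6+ cells, which recognise a superantigen of the graft donor, sorted from irradiated hosts that had received bone marrow from both C57BL/6 and B6D2F1 mice with naive CD4 T cells, alone or with expanded wild-type Treg that carried a Thy1.1 reporter and were gated out. The labels give spleen as the tissue of every sample and do not say whether replicates came from separate mice, so p-values measure the spread between these samples.

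HP1α and HP1γ are chromodomain proteins that bind histone H3 methylated at lysine 9 and help to keep chromatin compact and genes silent, and HP1γ is also found on transcribed genes. In ATAC-seq a transposase inserts adapters into open DNA, so the reads at a peak measure how accessible that stretch was across the cells of a sample. As T cells leave the naive state, enhancers held open by RUNX, ETS and TCF/LEF factors are remodelled and effector enhancers open. In such bulk samples, fewer cells with an open site and less opening per cell cannot be told apart.

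Sequence from opposed peaks that lead the set is shown first, because most opposed peaks lay away from promoters. Each is the central 300 bases of a peak on the + strand of GRCm39, read 5′ to 3′. Capitals mark the letters GGAAGT, which some ETS sites hold, TGTGGT, which RUNX factors read, AGATAA, which GATA factors read, and CTTTGA, which TCF and LEF factors read, on either strand, so that a match on the other strand appears as its reverse complement. Peaks were ordered by the smaller of their 2 differences with Treg, among those of at least 3 log2 CPM on average and within 100 kb of a TSS. The first 3 lead that order among peaks whose central window overlaps no annotated exon, with 1 leading peak not shown, and the last is the next in it near a gene of the lists on T cell function.
Zdhhc7, chr8:120831356-120831655: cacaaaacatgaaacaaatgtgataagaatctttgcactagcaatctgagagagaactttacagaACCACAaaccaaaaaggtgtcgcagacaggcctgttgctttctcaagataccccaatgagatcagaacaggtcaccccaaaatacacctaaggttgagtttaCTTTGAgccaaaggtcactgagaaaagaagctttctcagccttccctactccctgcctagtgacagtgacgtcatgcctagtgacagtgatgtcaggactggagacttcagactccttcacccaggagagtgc
Fbxw7, chr3:84756181-84756480: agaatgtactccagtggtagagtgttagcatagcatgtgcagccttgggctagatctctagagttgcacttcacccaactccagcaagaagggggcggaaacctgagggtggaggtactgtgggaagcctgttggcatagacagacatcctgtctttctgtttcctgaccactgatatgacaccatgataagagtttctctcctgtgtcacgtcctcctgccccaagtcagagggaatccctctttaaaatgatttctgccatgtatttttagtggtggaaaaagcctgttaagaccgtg
Sgms1, chr19:32387066-32387365: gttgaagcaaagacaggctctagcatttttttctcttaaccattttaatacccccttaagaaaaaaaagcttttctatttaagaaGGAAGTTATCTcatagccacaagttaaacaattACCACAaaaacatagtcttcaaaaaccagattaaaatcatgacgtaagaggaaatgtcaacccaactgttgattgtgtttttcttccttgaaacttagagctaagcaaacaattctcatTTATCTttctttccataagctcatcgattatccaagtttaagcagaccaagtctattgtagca
Lat, chr7:125929486-125929785: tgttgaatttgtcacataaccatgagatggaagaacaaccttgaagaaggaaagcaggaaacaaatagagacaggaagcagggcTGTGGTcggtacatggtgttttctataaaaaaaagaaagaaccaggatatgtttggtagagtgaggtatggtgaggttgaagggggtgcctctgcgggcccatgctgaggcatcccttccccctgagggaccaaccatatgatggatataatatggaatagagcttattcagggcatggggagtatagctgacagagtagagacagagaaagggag
The Zdhhc7 and Fbxw7 windows lie in annotated introns and the others between genes. Each name is the gene with the nearest protein-coding transcription start site (TSS). The Sgms1 window has GC content of 33.0% and holds 1 ETS, 1 RUNX and 2 GATA matches, the first GATA match overlapping the ETS match. The Zdhhc7 window holds 1 RUNX and 1 TCF/LEF match, the Lat window 1 RUNX match and the Fbxw7 window none of the 4. A match is a run of letters and does not show that a factor binds there.

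Depth differed between libraries, from 1.49 to 96.8 M reads in peaks. The wild-type HP1α libraries with Treg were shallow, and their median counts per opposed peak were 17, 1 and 10 reads. Wild-type replicate 2, at 1.49 M, had no read at 3848 opposed peaks (46.3%), against 8853 (12.4%) of all peaks. There its log2 CPM is set by the prior count alone, at -4.67. The study left out wild-type replicate 3 and KO replicates 2 and 3 of HP1α with Treg for low signal, and in these 3 libraries promoter peaks took 51.0% to 53.5% of the reads, against 56.8% to 63.5% in the other 33. Promoter peaks of 12 T cell marker genes, Cd3e, Cd4 and Lat among them, summed to at least 1252 CPM in every library. The sum was 1252 to 1404 CPM in HP1α wild type with Treg and 1546 to 1727 CPM in KO, without overlap. The Cd4 promoter peaks alone summed to 474 to 716 CPM in the 9 HP1γ KO libraries and at most 121 CPM in the other 27, and the Cd4-cre transgene holds Cd4 regulatory sequence. Whether reads from the transgene entered this sum was not tested. Without Cd4 the T cell markers of HP1γ KO and wild type overlapped in all 3 conditions. Promoter peaks of myeloid markers, 4 in all, summed to 60.2 to 83.5 CPM in HP1γ KO with Treg against 46.5 to 55.0 in wild type, and to 50.1 to 57.9 against 43.1 to 49.8 in Tconv, without overlap in either. Those of CD8 T and NK markers, 3 in all, were at 7.67 to 9.27 CPM in HP1γ KO with Treg against 10.8 to 14.5, also without overlap. Promoter peaks of B cell markers, 4 in all at Cd79b, Ebf1 and Pax5 and none at Ms4a1, summed to 23.8 to 36.3 CPM in HP1α wild type with Treg, 13.5 to 36.4 CPM in HP1α KO with Treg and at most 20.02 CPM in the other groups, and the part of these markers in the results was not tested. At Cbx5, which encodes HP1α, and Cbx3, which encodes HP1γ, the TSS peaks of KO and wild type differed by at most 0.22 log2 CPM on average and are not opposed peaks, so they do not check which libraries were KO.

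With Treg, the median difference of the opposed peaks between HP1α KO and wild type was 1.18 log2 CPM, with quartiles of 0.75 and 1.95, and between HP1γ KO and wild type -0.90, with quartiles of -1.21 and -0.68. Over all peaks the medians were 0.10 and -0.14. The plot of both differences shows the opposed peaks as 1 corner of a continuous cloud, without a gap at either threshold. The opposite corner, lower without HP1α and higher without HP1γ, held 4288 peaks (6.00%), and 1391 peaks were higher and 2181 lower in both KOs. At the HP1α threshold the nearest opposed peaks were next to Usp12 (chr5:146706471-146706850, 0.50002) and Csf2 (chr11:54084641-54085170, 0.50007), and the nearest peaks outside were next to Btg1 (chr10:96428621-96428850, 0.49987) and Dyrk2 (chr10:118875021-118876420, 0.49986). At the HP1γ threshold those inside were next to Mpg (chr11:32195641-32195900, -0.50005) and Tbc1d10a (chr11:4134661-4134860, -0.50007), and those outside next to Pdha1 (chrX:158936281-158936660, -0.49999) and 1700012B09Rik (chr9:14676111-14676370, -0.49998). 

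**Figure D1:**
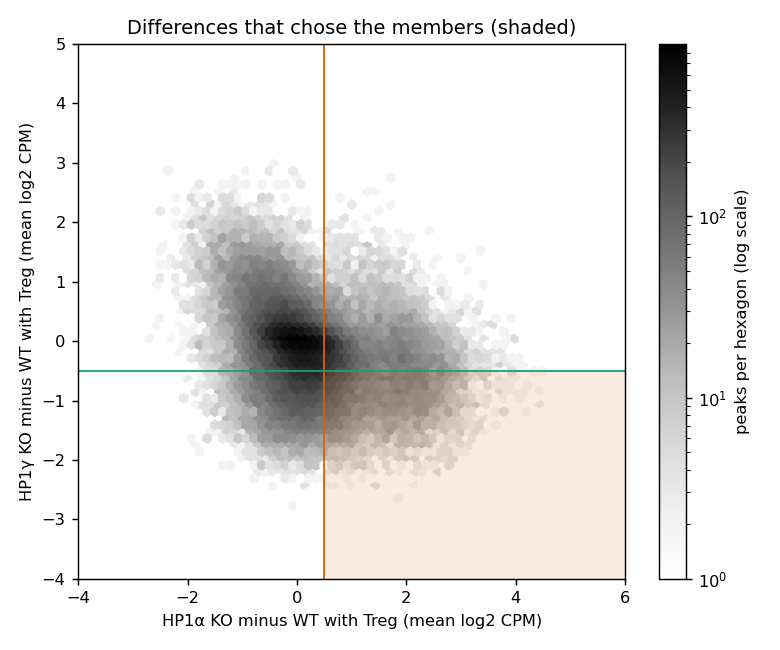
Mean KO minus wild-type difference in log2 CPM with Treg, HP1α on the x axis and HP1γ on the y axis, for all 71509 peaks as density with both thresholds drawn. The 8303 opposed peaks (members, shaded) fill the lower right corner, and no gap separates them from their neighbours.

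In the libraries that chose the peaks, KO and wild type were apart at more opposed peaks for HP1γ than for HP1α, whose wild-type libraries were shallow. In HP1γ cells with Treg, KO was below wild type in every library at 4997 opposed peaks (60.2%), against 20.5% of all peaks. In HP1α cells with Treg, KO was above wild type in every library at 1296 (15.6%), against 6.73% of all peaks. In the directions that the rule does not allow the counts were 0 by construction, against 4.75% of all peaks lower without HP1α and 10.7% higher without HP1γ. The excess over all peaks in the allowed directions also follows in part from the choice of peaks. The share of reads that fell in opposed peaks is given by library. With Treg its direction follows from the choice of peaks. It was 2.84%, 3.62% and 3.23% in HP1γ wild type with Treg and 1.41%, 2.00% and 1.77% in KO, so the groups did not overlap. In HP1α cells with Treg it was 1.89%, 1.68% and 3.55% in wild type and 2.92%, 4.38% and 4.52% in KO, and wild-type replicate 3 lay inside the range of the KO libraries. The 2 highest shares, and the highest of the wild type, were those of the 3 libraries that the study left out.

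Outside the libraries of the rule, the share of reads in opposed peaks was lower without HP1γ as well, while HP1α KO did not stand above its wild type. In Tconv without Treg it was 3.65%, 3.45% and 3.02% in HP1γ wild type and 2.98%, 2.58% and 2.51% in KO, again without overlap. In naive HP1γ cells it was 3.62%, 3.73% and 3.72% in wild type and 3.48%, 3.51% and 3.47% in KO, a smaller gap without overlap. In HP1α Tconv it was 3.47%, 3.78% and 3.80% in wild type and 3.40%, 3.16% and 3.53% in KO, and in naive HP1α cells 3.23%, 3.53% and 3.50% against 3.57%, 3.42% and 3.46%, overlapping in both. These shares were not tested.

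**Figure D2:**
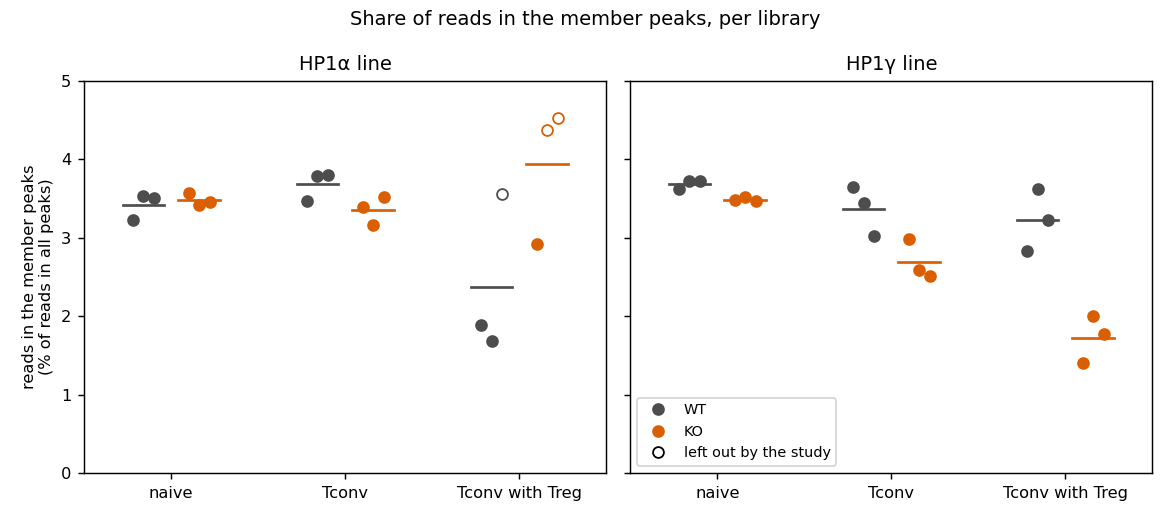
Percent of the reads in peaks that fell in the 8303 opposed (member) peaks, 1 point per library, by line, condition and genotype, with bars for the mean of 3 and open circles for the 3 libraries left out by the study. The HP1γ KO libraries lie below their wild type in all 3 conditions, and HP1α KO lies above wild type on average with Treg, with overlap.

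Opposed peaks were small, distal and modestly accessible. Of them 6.24% overlapped or lay within 1 kb of a protein-coding TSS, against 20.2% of all peaks, 61.1% lay in introns against 50.03%, 22.0% between genes against 19.2%, and 10.7% in exons against 10.5%. Their median width was 470 bases against 750, their median distance to the TSS 16191 bases against 12120.5, and their median GC content 47.0% against 48.0%. The observed over expected ratio of CpG had a median of 0.19 against 0.24. By mean accessibility over the 24 libraries that the rule did not use, opposed peaks made up 15.1%, 16.7%, 13.5% and 10.4% of the 4 lower quintiles of peaks and 2.41% of the top one. Chromosome 11 held the largest share, with 869 of its 5353 peaks (16.2%), followed by chromosome 7 with 13.2%, and the share on the other numbered chromosomes and X ranged from 9.65% to 12.6%.

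Short motifs were counted in the central 300 bases of each peak, on both strands. RUNX letters stood in 38.2% of the opposed peaks against 30.0% of all peaks, GGAAGT in 32.0% against 26.8%, GATA letters in 18.3% against 13.6% and TCF/LEF letters in 24.5% against 21.9%. The longer ETS letters CCGGAAG stood in 2.63% against 4.39%, the opposite direction to GGAAGT. Letters GGGCGG, which SP and KLF factors bind at CpG-rich promoters, stood in 6.12% against 16.5%. Outside promoter peaks, which are rare among the opposed, the same comparison gave 39.1% against 33.9% for RUNX, 32.1% against 27.9% for GGAAGT, 2.50% against 2.89% for CCGGAAG, 18.5% against 15.4% for GATA, 24.8% against 24.3% for TCF/LEF and 5.41% against 8.44% for GGGCGG. The AP-1 letters TGANTCA (11.9% against 13%) and the NFAT letters TGGAAA (20.5% against 23.7%) were less frequent in opposed peaks. Outside promoter peaks they stood at 11.98% against 14.8% for AP-1 and 20.6% against 25.7% for NFAT. Among the 19 motifs searched, RUNX had the largest excess in percentage points in both comparisons, and the largest deficit was that of GGGCGG over all peaks and that of NFAT outside promoters. No test was made on these shares, and NFAT, ETS and IRF letters can overlap.

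**Figure D3:**
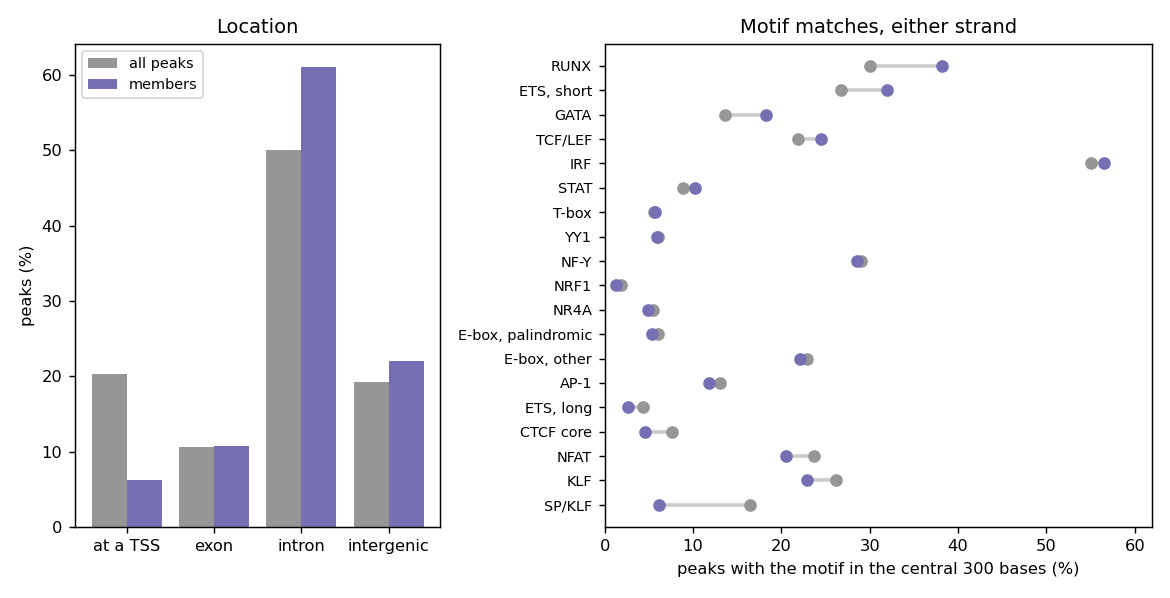
Percent of peaks by location and percent holding each motif, opposed peaks (members, violet) beside all peaks (grey), as bars from 0 for location and as points joined by a line for motifs. Opposed peaks hold fewer promoters (6.24% against 20.2%) and more RUNX letters (38.2% against 30.0%).

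The opposed peaks were assigned to 4241 of the 15174 genes with a peak, of which 1681 had at least 2 and 51 at least 10. A gene here is the nearest protein-coding one and need not be the target of the site. Most opposed peaks stood alone, in that 1243 runs of 2 or more neighbouring peaks held 2921 of them, and 31 runs held at least 5. The longest run was 12 consecutive peaks over 32.0 kb inside Rapgef6, which encodes an exchange factor for RAP GTPases (chr11:54458361-54490400), with median differences with Treg of 1.62 in HP1α and -1.16 in HP1γ. Runs of 7 lay at Klf3, which encodes a zinc-finger repressor, and at Grap2, which encodes an adaptor of T cell receptor signalling. A run of 5 lay at Tcf7, which encodes the T cell factor TCF1 (chr11:52191721-52202550, medians of 1.01 and -0.85).

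The genes with most opposed peaks were Zfp386 (28 of its 84 peaks), Foxp1 (25 of 96), Rapgef6 (22 of 33), Bcl11b (21 of 102) and Satb1 (20 of 82). Foxp1, Bcl11b and Satb1 encode transcription factors and a chromatin organiser of T cells, and FOXP1 maintains quiescence of naive T cells. The 28 peaks assigned to Zfp386 span chr12:114877981-115944660, and 22 of them have an immunoglobulin V gene or pseudogene as the nearest gene of any kind, so that stretch is better described as the immunoglobulin heavy chain locus. At Foxp1, 21 of the 25 had lost accessibility between naive cells and Tconv in HP1γ wild type (84 of all its 96 peaks), with a median log2 fold change of -2.30, and 12 had in HP1α wild type (58 of all 96), with a median of -1.18. At Satb1, 18 of 20 had in HP1γ wild type (68 of all 82) and 8 in HP1α wild type (45 of all 82). In both genes peaks thus closed widely, opposed or not. None of the 25 Foxp1 or 20 Satb1 peaks was called between HP1γ KO and wild type in Tconv by edgeR, where their medians were 0.16 and -0.16. At an unadjusted p under 0.05 there were 1 higher and 4 lower at Foxp1 and 0 and 1 at Satb1, and DESeq2 called 1 lower at Foxp1. At that p 313 of the 8298 tested opposed peaks were higher and 1876 lower, with 7924 and 7347 of all 71417 tested peaks.

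The question whether the pattern extends to cells without Treg was put to the libraries that the rule did not use. A peak was called at a Benjamini-Hochberg adjusted p under 0.05 in edgeR's quasi-likelihood test and an absolute log2 fold change over 1, adjusted over all peaks tested, and the SE was derived from the F statistic. Of the 8303 opposed peaks, 8302 passed the filter on low counts in the HP1α fit and 8298 in the HP1γ fit. In Tconv, 266 opposed peaks fell without HP1γ (3.21%, with 0.969% of all peaks called lower) and 20 rose (0.241%, with 1.55% of all peaks called higher). The opposed peaks were 38.4% of all 692 peaks called lower in that comparison. Their median log2 fold change was -0.19 against 0.02 over all peaks, and 64.8% were below 0 against 47.5%. The 266 became 32 without HP1γ wild-type replicate 2, 111 without KO replicate 3, 140 without KO replicate 2, 155 without wild-type replicate 1, 559 without KO replicate 1 and 634 without wild-type replicate 3. KO lay below wild type in every library at 1142 opposed peaks (13.8%, 5.96% of all peaks) and above at 324 (3.90%, 13% of all peaks).

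Without HP1α, no opposed peak was called in Tconv in either direction by edgeR's quasi-likelihood test, with 0% of all peaks called either way. The smallest adjusted p over all peaks was 0.103. At an unadjusted p under 0.05, 70 opposed peaks were higher and 360 lower in HP1α KO, against 939 and 1926 of all peaks, and DESeq2 called 1 higher and 1 lower. Their median was -0.16 against -0.05, with 66.9% below 0 against 56.4%, a sign opposite to that with Treg. With loess offsets on mean abundance the medians were 0.01 and 0.02, and with depth as a covariate -0.02 and 0.01, so the gap of -0.10 to all peaks shrank to -0.01 and -0.04. By quintile of mean accessibility, from low to high, the medians of opposed peaks were -0.32, -0.23, -0.15, -0.02 and 0.06. Those of all peaks were -0.35, -0.21, -0.13, -0.004 and 0.13. Other sets were also below 0, with -0.29 in the opposite corner and -0.17 at peaks that met the HP1γ threshold alone. KO lay above wild type in every library at 108 opposed peaks (1.30%, 2.71% of all peaks) and below at 577 (6.95%, 4.84% of all peaks). In naive HP1α cells no opposed peak was called either, with 0.0014% of all peaks called higher and 0% lower. At an unadjusted p under 0.05, 23 were higher and 43 lower, against 196 and 342 of all peaks. DESeq2 called 0, and the median was 0.01 against 0.00. There KO lay above wild type in every library at 253 opposed peaks (3.05%, 2.95% of all peaks) and below at 272 (3.28%, 3.40% of all peaks), close to the shares of all peaks. A p that misses the threshold does not show that the values did not differ, and HP1α wild-type Tconv included a library of 6.20 M reads.

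**Figure D4:**
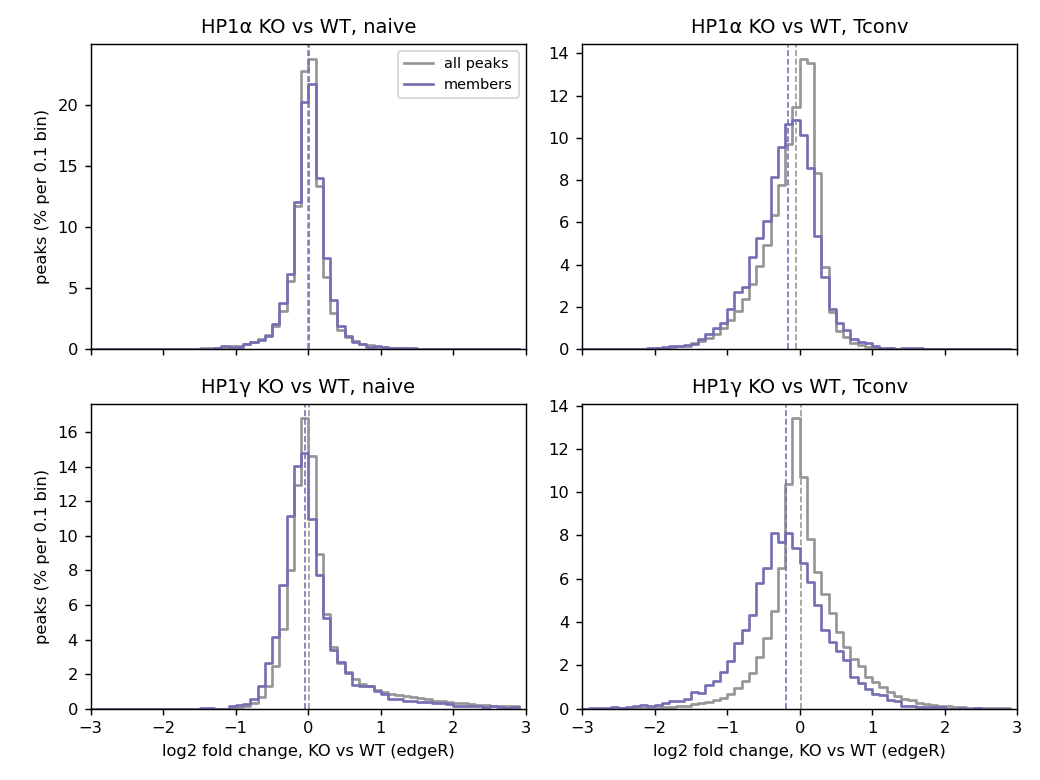
Distribution of the log2 fold change between KO and wild type in naive cells and in Tconv without Treg, opposed peaks (members, violet) beside all peaks (grey) as percent of peaks per bin, for HP1α and HP1γ, with dashed lines at the medians. The opposed peaks lie lowest in HP1γ KO Tconv, with a median of -0.19 against 0.02, and near all peaks in naive HP1α cells.

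The fall in HP1γ KO Tconv was shared with other peaks that were lower without HP1γ with Treg. Among 10011 peaks that met the HP1γ threshold and neither HP1α threshold, 323 fell (3.23%), and among the 2181 lower in both KOs, 56 did (2.57%). Of the peaks that met the HP1α threshold alone, 12 fell (0.121%). In the opposite corner 396 rose (9.30%) and 1 fell. The opposed peaks are therefore described here by both values with Treg, and the share that fell in Tconv was close to that of peaks chosen on HP1γ alone, a difference that was not tested. Both sets share the HP1γ libraries with Treg.

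The share that fell was 3.29% of opposed peaks away from a TSS, where 1.16% of all such peaks fell, and 1.93% at a TSS, where 0.214% did. It was 3.23% at opposed peaks with a read in HP1α wild-type replicate 2 with Treg and 3.17% at those without one, against 0.890% and 1.53% of all peaks of each kind. The change between naive cells and Tconv in HP1α wild type, whose libraries took no part in the HP1γ fit, divided the opposed peaks further. Of the 2109 tested peaks that opened in HP1α wild-type Tconv, 181 fell without HP1γ (8.58%, and 2.28% of all such peaks), with a median of -0.55. Of the 1651 that closed, 9 fell (0.545%, and 0.386% of all), with a median of 0.11, and of the 4538 not called, 76 fell (1.67%, and 0.545% of all). This split was chosen after seeing the data.

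From naive cells to Tconv in wild type, opposed peaks went both ways. In HP1γ wild type 2173 opened (26.2%, with 24.8% of all peaks) and 2973 closed (35.8%, with 22.3%), and in HP1α wild type 2110 opened (25.4%, with 25.8%) and 1651 closed (19.9%, with 13.8%). Closing was more frequent among peaks that met the HP1γ threshold and neither HP1α threshold, at 41.4% in HP1γ and 26.7% in HP1α wild type. Among peaks lower in both KOs it was 58.7% and 33.0%. In HP1α wild type the balance turned with the scaling, from 2383 opened and 1066 closed with library size alone to 1964 and 2088 with GC offsets, 2027 and 2625 with depth as a covariate and 1592 and 2475 with loess offsets on mean abundance. The 266 peaks that fell in HP1γ KO Tconv were mostly among those that open. Of them 181 opened in HP1α wild type and 199 in HP1γ wild type, while 9 and 10 closed. The HP1γ wild-type Tconv libraries enter both the choice of the 266 and the HP1γ counts, and the HP1α counts share no library with it. They were assigned to 241 genes, 10 lay at a TSS and 66 more than 50 kb from one. With Treg their medians were 1.18 in HP1α and -1.45 in HP1γ, and in HP1α Tconv without Treg -0.12.

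The peak that led the order by the smaller difference lay in an annotated intron, centred 3.24 kb upstream of Zdhhc7, which encodes a palmitoyltransferase (chr8:120830891-120832120). With Treg its log2 CPM was 1.87, 0.47 and 2.14 in HP1α wild type and 2.86, 3.65 and 3.53 in KO, and 3.06, 4.01 and 3.37 in HP1γ wild type and 1.11, 2.04 and 1.90 in KO. Neither pair of groups overlapped there. In Tconv without Treg it was 3.95, 4.01 and 3.12 in HP1γ wild type and 3.08, 2.78 and 2.55 in KO, without overlap and with a log2 fold change of -1.01 ± 0.21 (SE, n = 3 per group, adjusted p = 0.0175). In HP1α Tconv it was 3.81, 3.74 and 3.56 in wild type and 3.58, 3.35 and 3.38 in KO, which overlapped, with -0.21 ± 0.18 (adjusted p = 0.911). In naive cells the changes were 0.17 ± 0.17 in HP1α and -0.29 ± 0.21 in HP1γ, neither past the threshold.

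A peak between genes 38.1 kb from the TSS of Lat, which encodes the adaptor that links the T cell receptor to its downstream enzymes (chr7:125928731-125930540), carried opposed differences of 1.66 and -1.32. With Treg it stood at 2.2, 0.47 and 3.57 in HP1α wild type and 3.97, 3.73 and 3.53 in KO, where wild-type replicate 3 reached the KO range, and at 4.10, 4.17 and 3.46 in HP1γ wild type and 2.14, 3.20 and 2.43 in KO, without overlap. In HP1γ Tconv without Treg it was 4.78, 4.06 and 4.0 in wild type and 4.27, 3.43 and 3.58 in KO. These groups overlapped, and the change of -0.59 ± 0.23 did not pass the test (adjusted p = 0.147). Among the 20 leading peaks, those at the TSS were at Or10p22, an odorant receptor gene, with 1.40 and -1.38, and Synj2, with 1.37 and -1.34.

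Opposed peaks at the start of T cell genes were few but included Il7r, which encodes the receptor chain for the survival cytokine interleukin-7 (chr15:9526221-9530850). With Treg its log2 CPM was 4.95, 4.64 and 4.88 in HP1α wild type and 5.93, 5.26 and 5.46 in KO, without overlap, and 5.77, 6.07 and 5.82 in HP1γ wild type and 4.58, 5.20 and 4.47 in KO, again without overlap. In Tconv without Treg it was 5.97, 6.03 and 5.81 in HP1γ wild type and 5.84, 5.34 and 5.52 in KO. That change was -0.43 ± 0.12, with an adjusted p of 0.0549, and in HP1α Tconv it was 0.28 ± 0.20, with an adjusted p of 0.911. In naive cells the peak was more open, from 6.19 to 6.58 in every library of both lines, with changes of -0.07 ± 0.20 and 0.08 ± 0.12.

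At the start of Foxp1 (chr6:99408831-99413290) the differences with Treg were 0.74 and -1.29. In Tconv without Treg this peak stood at 5.14, 4.65 and 4.72 in HP1γ wild type and 4.52, 3.84 and 4.08 in KO, without overlap, with -0.74 ± 0.17 and an adjusted p of 0.0250, short of the fold threshold. An intronic Foxp1 peak centred 6.24 kb inside the gene (chr6:99405071-99407060) was at 4.42, 4.42 and 4.16 in HP1γ wild-type Tconv and 3.62, 2.87 and 3.72 in KO, and at 3.89, 4.10 and 3.81 in HP1α wild-type Tconv and 4.07, 4.40 and 4.31 in KO. The KO effects of the 2 lines differed there by -1.34 ± 0.24 (adjusted p = 0.0209). In naive cells the same difference was -0.08 ± 0.23. Between naive cells and Tconv it changed by -1.80 ± 0.14 in HP1α wild type.

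**Figure D5:**
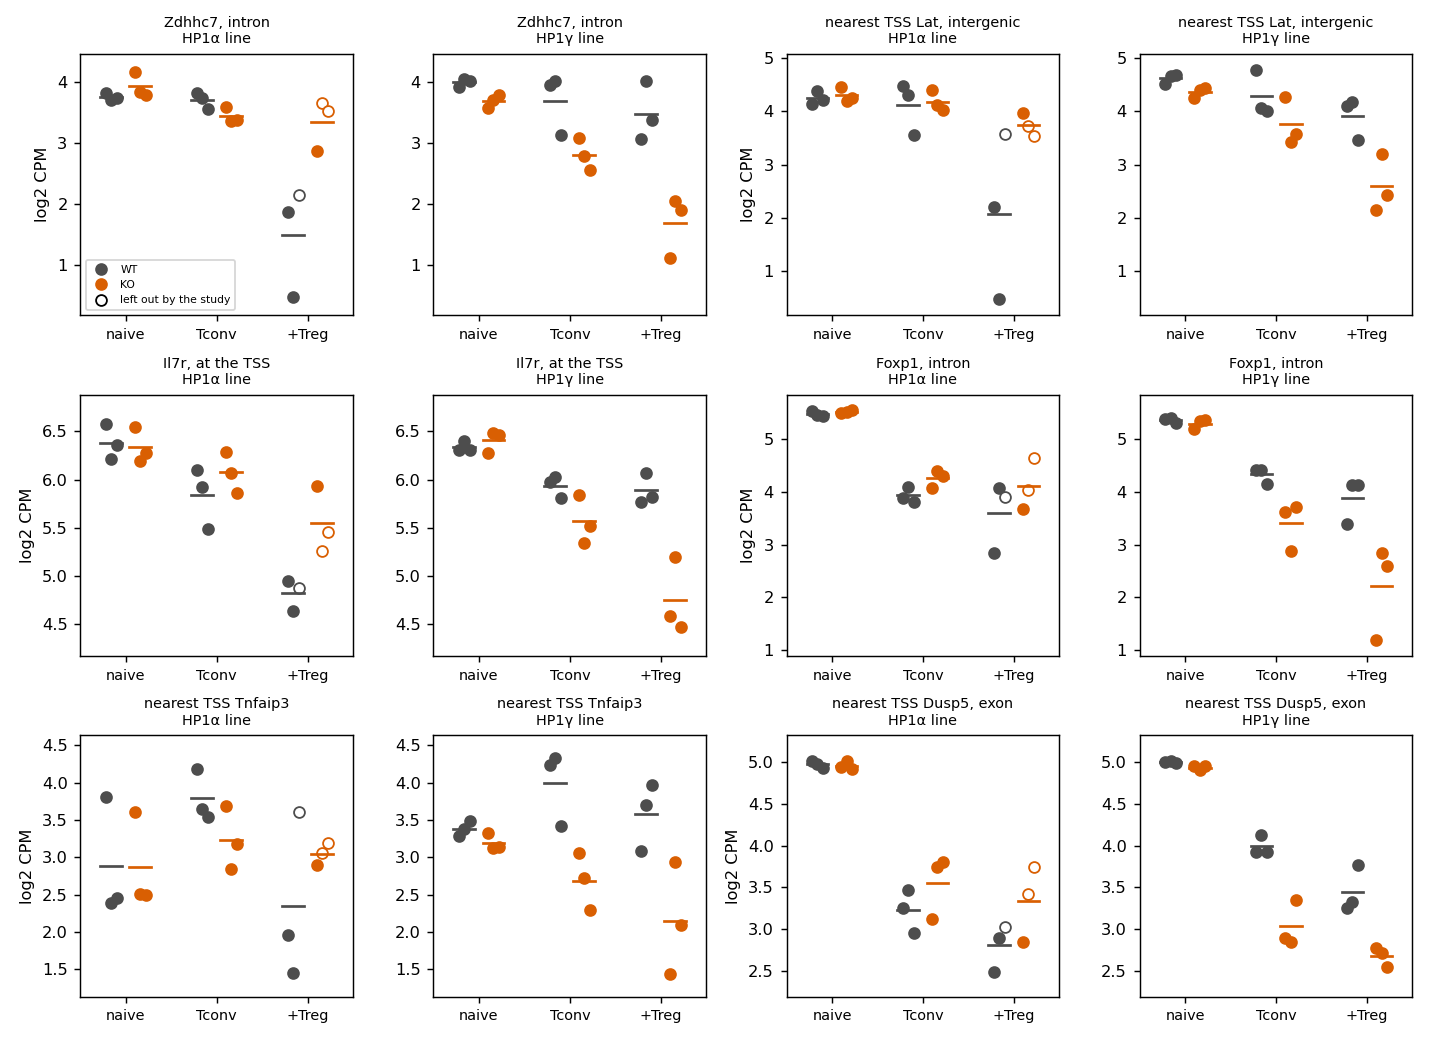
Log2 CPM in each of the 36 libraries at 6 opposed peaks near Zdhhc7, Lat, Il7r, Foxp1, Tnfaip3 and Dusp5, with bars for the mean of 3 and open circles for the libraries left out by the study, each peak on its own scale. HP1γ KO lies below wild type with Treg at all 6, and in Tconv without Treg the groups do not overlap at Zdhhc7, Foxp1, Tnfaip3 and Dusp5.

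Peaks near Tnfaip3 and Dusp5, among the 241 genes with a falling peak, serve as examples. A peak in an intron 109 kb from the TSS of Tnfaip3, which encodes the inhibitor of NF-κB signalling A20 (chr10:19000131-19001270), was at 4.23, 4.33 and 3.42 in wild type and 3.05, 2.72 and 2.29 in KO, a change of -1.42 ± 0.23 (adjusted p = 0.00508). In HP1α Tconv it was at 4.18, 3.65 and 3.54 in wild type and 3.69, 2.84 and 3.18 in KO, which overlapped, with -0.50 ± 0.43 (adjusted p = 0.911). A peak 8.13 kb from Dusp5, which encodes a phosphatase that inactivates ERK (chr19:53507931-53509400), was at 3.93, 4.13 and 3.92 in HP1γ wild type and 2.90, 2.85 and 3.35 in KO, a change of -1.01 ± 0.14 (adjusted p = 0.00218), while naive cells lay from 4.91 to 5.02 in that line in both genotypes. The KO effects of the 2 lines in Tconv differed at the Dusp5 peak by -1.40 ± 0.23 (adjusted p = 0.0166).

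Among the opposed peaks that fell in HP1γ KO Tconv, those of smallest adjusted p were 507 kb from Bcl11b, 87.1 kb from Cpn2 and the Dusp5 peak. The Bcl11b peak (chr12:107463211-107463630) was at 2.32, 2.23 and 1.73 in HP1γ wild-type Tconv and 0.66, 0.79 and 0.25 in KO, a change of -1.65 ± 0.22 (adjusted p = 0.00155). The Cpn2 peak (chr16:29998291-29999320) was at 2.92, 3.27 and 2.69 against 1.57, 1.49 and 0.89, a change of -1.74 ± 0.25 (adjusted p = 0.00233). Neither pair of groups overlapped. In HP1α Tconv the changes were -0.30 ± 0.22 and -0.37 ± 0.24, with an adjusted p of 0.911 for each. BCL11B keeps T cells in their lineage, and Cpn2 encodes a subunit of a plasma carboxypeptidase and need not be the gene that the site serves.

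On the list of Th17-type genes 22 of 226 peaks were opposed (9.73%), and 7 of the 22 fell in HP1γ KO Tconv, with a median over the 22 of -0.86. Of all 226 peaks of the list 11 fell and 7 rose, with a median of 0.12. The 7 that fell among the opposed lay near 3 genes, Csf2, which encodes the cytokine GM-CSF, Ahr, which encodes the aryl hydrocarbon receptor, and Rora, which encodes a nuclear receptor of Th17 and innate-like cells. The Csf2 peak 1.31 kb from the TSS (chr11:54141801-54142620) was at 1.91, 3.13 and 2.13 in wild type and 0.64, 1.21 and 0.32 in KO, a change of -1.86 ± 0.33 (adjusted p = 0.00888). It opened by 5.37 ± 0.42 between naive cells and Tconv in HP1γ wild type. The 3 Ahr peaks changed by -2.04, -1.07 and -1.15 and the 2 Rora peaks by -1.42 and -2.40.

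The 10 at a TSS were at Ccl1, Cdhr4, Fxyd3, Gpr34, Klrk1, Ly9, Prnp, Psmc6, Rps6ka3 and Spns2, named after their values were seen. The start of Klrk1, which encodes the activating receptor NKG2D (chr6:129599011-129599890), was at 2.67, 3.57 and 2.90 in HP1γ wild-type Tconv and 1.85, 1.19 and 1.35 in KO, a change of -1.69 ± 0.30 (adjusted p = 0.00832). In HP1α Tconv the same peak was at 3.46, 2.50 and 4.23 against 3.61, 3.66 and 2.94, which overlapped. Spns2 encodes a transporter of sphingosine-1-phosphate, and its peak changed by -1.47 ± 0.35 (adjusted p = 0.0302).

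On the lists of cytokine signalling, T cell receptor signalling, metabolism and inhibitory genes, 1 to 4 opposed peaks fell, and 3.21% of all opposed peaks did. Near the cytokine receptor genes Ifngr2 and Il10ra and near Socs2, an inhibitor of JAK-STAT signalling, opposed peaks changed by -1.07, -1.03 and -1.46 in HP1γ KO Tconv, 3 of the 48 opposed peaks of that list (6.25%), where 1 other rose, and of all its 339 peaks 8 fell and 2 rose. Near Lcp2, Prkcq, Rasgrp1 and Nfatc2, which encode the adaptor SLP-76, protein kinase C theta, a RAS activator and an NFAT factor, they changed by -1.19, -1.03, -1.13 and -1.19, 4 of 71 (5.63%), while 5 fell and 5 rose among all 562 peaks of the list. The peak near Lcp2 (chr11:34011321-34012100) was at 3.07, 3.26 and 2.54 in wild type and 1.70, 2.19 and 1.73 in KO. A peak near Ldha, which encodes lactate dehydrogenase (chr7:46476381-46476750), was at 2.44, 2.27 and 0.67 against -0.71, 0.03 and -0.85, with -2.63 ± 0.49 (adjusted p = 0.00987), 1 of 20 on the list of metabolic genes, of whose 129 peaks 2 fell and 2 rose. Of the inhibitory receptor and exhaustion genes, Prdm1 and Tigit had 1 falling opposed peak each, of 28 (7.14%), while among all 434 peaks of the list 4 fell and 15 rose.

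The share of opposed peaks differed between gene lists that were drawn up with earlier results of these data known. Of 705 peaks near genes of the naive and quiescent state, 151 were opposed (21.4%, with 11.6% of all peaks). Between naive cells and Tconv 100 of the 151 closed in HP1γ wild type (66.2%, with 59.9% of the list's peaks). In HP1α wild type 54 closed (35.8%, with 40.7% of the list's peaks), the other way round. In HP1γ KO Tconv 2 of the 151, near Btg1 and S1pr1, fell (1.32%, with 0.567% of the list's peaks and 3.21% of all opposed peaks). Homing and adhesion genes had 59 of 295 (20%), of which 32 opened in HP1γ wild type (54.2%, with 45.1% of the list's peaks) and 9 closed, and 0 were called in HP1γ KO Tconv by edgeR, with a median of -0.45, while 8 of the list's other peaks fell and 1 rose. At an unadjusted p under 0.05, 1 of the 59 was higher and 22 lower, and DESeq2 called 0. At that p 313 of the 8298 tested opposed peaks were higher and 1876 lower, with 7924 and 7347 of all 71417 tested peaks. Interferon-stimulated genes had 21 of 114 (18.4%) and T cell identity genes 42 of 223 (18.8%). Inhibitory receptor and exhaustion genes had 28 of 434 (6.45%), cell cycle genes 20 of 198 (10.1%), heterochromatin and Polycomb genes 19 of 189 (10.1%) and housekeeping genes 11 of 127 (8.66%). With the nearest TSS of any gene in place of the nearest protein-coding one, the first 2 shares were 26.8% and 27.0% and that of inhibitory genes was 4.97%.

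The study's own lists were chosen partly on these libraries and are not independent evidence. Of 391 peaks near its genes that are both more open and more expressed in HP1α KO with Treg, 143 were opposed (36.6%), and 3 of these, near Dyrk3, Spef2 and Gpr34, fell in HP1γ KO Tconv (2.10%, with 1.53% of the list's peaks and 3.21% of all opposed peaks). Of 1487 peaks near its HP1γ list, 45 were opposed (3.03%). Gene names were matched for 44 of the 54 genes of the HP1α list and 139 of the 151 of the HP1γ list. Of a Th1 signature it compiled, 123 of 850 peaks were opposed (14.5%), and of an exhaustion signature 98 of 1163 (8.43%), of which 3 and 8 fell in HP1γ KO Tconv (2.44% and 8.16%). Over all tested peaks of these signatures 11 fell and 4 rose on the Th1 one, and 17 fell and 25 rose on the exhaustion one. The lists on survival, costimulation and metabolism had 11.9%, 10.7% and 15.5%, and those on cytokine receptors and T cell receptor signalling 14.2% and 12.6%. Of peaks near markers of other cells, 6 of 29 for B cells, 5 of 28 for CD8 T and NK cells, 4 of 25 for myeloid and 0 of 8 for erythroid cells were opposed.

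Th1 effector genes had 49 opposed peaks of 290 (16.9%), and 32 of the 49 opened between naive cells and Tconv in HP1γ wild type (65.3%, with 61.6% of the list's peaks). None of the 49 was called between KO and wild type in HP1γ or HP1α Tconv by edgeR's quasi-likelihood test, and their medians were -0.29 and 0.00. At an unadjusted p under 0.05, 16 were lower and 1 higher in HP1γ KO and 1 lower in HP1α KO, and DESeq2 called 0 in both. At that p 1876 of the 8298 tested opposed peaks were lower and 313 higher in HP1γ KO, with 7347 and 7924 of all 71417. In HP1α KO 360 of 8302 were lower, with 1926 of all 71461. The peak at the start of Il18r1, which encodes an interleukin-18 receptor chain (chr1:40504301-40507580), was at 3.90, 5.16 and 5.09 in HP1α wild type with Treg and 5.69, 5.23 and 5.34 in KO, and in HP1γ Tconv without Treg at 5.21, 5.62 and 5.49 against 5.27, 5.60 and 5.42, with -0.09 ± 0.11. Near Runx3, which encodes a RUNX factor of Th1 and CD8 cells, 9 peaks were opposed, and that at chr4:134829391-134831980 had -0.57 in HP1γ KO Tconv (adjusted p = 0.0207), short of the fold threshold.

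The 2 cytokine genes that mark these cells differed. At Il2 the TSS peak (chr3:37179131-37181450) was opposed, with log2 CPM with Treg of 3.37, 4.13 and 3.24 in HP1α wild type and 4.76, 4.33 and 3.98 in KO, and 5.0, 5.20 and 4.66 in HP1γ wild type and 3.55, 4.64 and 3.85 in KO. The HP1α groups overlapped, and the HP1γ groups did not. In Tconv without Treg it was 5.06, 5.10 and 5.13 in HP1γ wild type and 5.19, 4.20 and 5.02 in KO, with -0.29 ± 0.21 (adjusted p = 0.443). A second opposed Il2 peak lay at chr3:37182181-37182920. At Ifng 8 of 34 peaks were opposed and the TSS peak (chr10:118276051-118279970) was not, with differences with Treg of -0.02 in HP1α and -0.04 in HP1γ.

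In naive HP1γ cells, 13 opposed peaks rose (0.157%, with 0.295% of all peaks called higher) and 0 fell (0.0056% of all peaks called lower). At an unadjusted p under 0.05 there were 222 lower and 523 higher, against 1833 and 7575 of all peaks, and DESeq2 called 4 lower. The median was -0.05 against 0.01. KO lay below wild type in every library at 1530 opposed peaks (18.4%, 14.8% of all peaks) and above at 734 (8.84%, 13.6% of all peaks). Among the 13 that rose, the smallest adjusted p were those of peaks nearest to Tgfbr2 (chr9:116136251-116136530), Fcrla (chr1:170761841-170762440) and Vmn2r96 (chr17:18938431-18939030), with log2 fold changes of 3.33 ± 0.30, 3.12 ± 0.35 and 1.15 ± 0.16. The Fcrla peak was at -0.26, -0.49 and -0.32 in wild type and 2.50, 2.88 and 2.67 in KO, and the Tgfbr2 peak at -2.07, -1.19 and -1.47 against 1.72, 1.52 and 1.70. Without KO replicate 3 of naive HP1γ cells 145 opposed peaks were called higher, without KO replicate 2 or wild-type replicate 3 there were 2, and without KO replicate 1 or wild-type replicate 2 there were 3. Fcrla encodes an Fc receptor-like protein of B cells and Tgfbr2 a receptor for TGF-β, whose TSS lies 131 kb away. The 20 that rose in HP1γ KO Tconv were led by peaks nearest to Sox4 (chr13:29394561-29394810), at -4.67, -4.17 and -3.40 in wild type and -1.58, -1.30 and -1.78 in KO, and Vmn2r99 (chr17:19523831-19524650), at 0.07, -0.34 and -0.06 against 1.47, 0.86 and 0.89. At the Sox4 peak -4.67 is the value of a library without a read, and the KO values are low as well.

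Whether the HP1γ effect differed between Tconv and naive cells was tested as an interaction of genotype and condition. The difference was lower in Tconv at 25 opposed peaks (0.301%, with 0.133% of all peaks) and higher at 0, with 0.0714% of all peaks called higher. At an unadjusted p under 0.05 there were 282 higher, against 3860 of all peaks, and DESeq2 called 31. Among the 25, at the smallest adjusted p was an intronic peak nearest to Gpr171, which encodes a G protein-coupled receptor of T cells (chr3:58969271-58970200). It was at -2.71, -3.30 and -2.97 in naive wild type and -0.81, -0.99 and -1.18 in naive KO, and at 3.19, 3.47 and 3.44 in wild-type Tconv and 3.17, 2.01 and 2.77 in KO. Its difference was -3.07 ± 0.49 (adjusted p = 0.0364). The start of Ltb4r1, which encodes a leukotriene B4 receptor (chr14:56001761-56003680), had a log2 fold change of 0.78 ± 0.19 in naive cells (adjusted p = 0.0866) and -0.83 ± 0.17 in Tconv (adjusted p = 0.0143, short of the fold threshold), a difference of -1.61 ± 0.25 (adjusted p = 0.0364). The change between naive cells and Tconv in HP1γ wild type was 1.33 to 9.40 on the log2 scale at the 25, a value whose libraries enter the interaction with the opposite sign, so that its direction is partly set by the choice of these peaks. Plxnc1, a semaphorin receptor gene, is nearest to 3 of them. The count was 0 without any 1 of 6 libraries (naive wild-type replicates 1 to 3, naive KO replicates 1 and 2 and Tconv wild-type replicate 2), 4 without Tconv KO replicate 2, 8 without Tconv KO replicate 3, 173 without Tconv KO replicate 1, 198 without naive KO replicate 3 and 232 without Tconv wild-type replicate 3. For HP1α the interaction gave 0 opposed peaks in either direction, with 0% of all peaks, by edgeR's quasi-likelihood test, and 0 by DESeq2. At an unadjusted p under 0.05, 49 were higher and 157 lower, against 320 and 736 of all peaks.

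Whether the KO effects of the 2 lines differed was tested in the 24 libraries that the rule did not use. In Tconv the HP1γ effect was below the HP1α effect at 17 opposed peaks (0.205%, with 0.0867% of all peaks) and above it at 0, with 0.151% of all peaks called higher. At an unadjusted p under 0.05, 318 opposed peaks were higher, against 6207 of all peaks, and DESeq2 called 24. In naive cells the HP1γ effect was above at 4 (0.0482%, with 0.0517% of all peaks) and below at 0 (0.0028% of all peaks). There 73 were below at an unadjusted p under 0.05, against 609 of all peaks, and 0 by DESeq2. The median of the difference was -0.07 in Tconv, against 0.05 over all peaks (0.08 against 0.20 with library size alone), and -0.06 in naive cells, against 0.01. Beside the Dusp5 and Foxp1 peaks, the 17 included one near Aff4, which encodes a scaffold of transcription elongation (chr11:53236001-53236960). It was at 3.02, 2.65 and 1.38 in HP1γ wild-type Tconv and 0.14, 0.68 and -0.85 in KO, and at 1.16, 2.65 and 1.78 in HP1α wild-type Tconv and 1.65, 3.07 and 2.62 in KO, so the HP1γ groups did not overlap and the HP1α groups did. The difference was -3.25 ± 0.58 (adjusted p = 0.0209). One near Cd40lg, which encodes the CD40 ligand (chrX:56233681-56235650), had -1.15 ± 0.23 (adjusted p = 0.0319). The 4 in naive cells were near Fcrla, Gas7, Itgb1 and Itprid2. The 17 rested on single libraries, with 0 called lower without HP1α KO replicate 2 or HP1γ wild-type replicate 2 and 221 lower and 267 higher without HP1α wild-type replicate 1, and the 4 became 0 without any 1 of 8 libraries and 17 without naive HP1γ KO replicate 3.

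The choice of opposed peaks depended on the libraries. With the libraries kept by the study alone, 6913 peaks met the rule and 6000 of these were among the 8303 (72.3%). Leaving out each of the 12 libraries in turn gave 6346 to 12281 peaks, and 1767 of the 8303 (21.3%) met the rule under every one of these. Without HP1α wild-type replicate 2 there were 6346, which held 56.3% of the 8303, without HP1α KO replicate 1 there were 12281, and with the 3 libraries left out by the study and wild-type replicate 2 all set aside, 6029, of which 3664 were among the 8303. Leaving out 1 library at a time, 2.79% to 3.72% of the peaks that met the rule fell in HP1γ KO Tconv, as did 3.04% with the kept libraries. At a threshold of 1 for both differences 2114 peaks remained, and 6.15% of them fell.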

How the data were processed

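ATAC-seq counts of reads per peak were used as deposited by the authors for all 36 libraries, 3 per group, whole numbers without normalization. Per the submitters' processing notes and the methods of the study, reads were trimmed with Trim Galore 0.6.7 and aligned with BWA to GRCm39, duplicates were removed, peaks were called per sample with HMMRATAC and merged, and reads were counted with featureCounts 2.0.3. Counts over merged peaks depend on which libraries gave a peak. Of 71512 intervals, 3 of zero width were left out, which gave 71509 peaks, and 0 further columns of per-sample values were present. Depth ran from 1.49 to 96.8 M reads in peaks. One read weighs more in a shallow library, so values there are coarser.

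Log2 CPM was computed from the library total with a prior count of 2 scaled to library size over all 36 libraries. Members and gene lists were chosen with earlier results of these data known. Peaks were assigned to the nearest protein-coding TSS of GENCODE M39, at a TSS within 1 kb. Tests used edgeR 4.0.16 (quasi-likelihood, TMM, filterByExpr) in R 4.3.3 with limma 3.58.1, 1 fit per line over its naive and Tconv libraries and 1 fit over both lines for differences between lines, with Benjamini-Hochberg adjustment over all peaks tested. The SE is the absolute log2 fold change divided by the square root of F. DESeq2 1.42.0 was an alternative, with other scalings, filters, samples in the fit, priors, thresholds and each library left out. Python 3.11.15, pandas 2.3.3, numpy 2.4.6 and matplotlib 3.10.9 were used otherwise.

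Peaks were named by rule. These were the 20 opposed peaks with the largest smaller difference at a mean of at least 3 log2 CPM within 100 kb of a TSS, the 3 of smallest adjusted p per comparison and direction, the 3 genes with the most open opposed peak per list, the neighbours of each threshold, the 5 genes with most opposed peaks, and the Th1, Il2 and Ifng peaks. Others were named after their values were seen. Counts were simulated with the depths of the naive and Tconv libraries of each line and 1 common coefficient of variation from its fit over both. With 26% for HP1α, 88% of peaks changed by a log2 fold change of -2 in KO Tconv were called. For -1.5, 1.5 and 2 these were 49%, 72% and 100%, in a fit of 71403 peaks. With 19.3% for HP1γ they were 100%, 90%, 100% and 100% in a fit of 71372 peaks. The changed peaks were drawn from all tested peaks. Median accessibility was 1.33 log2 CPM over all peaks and 0.53 over opposed peaks. Recovery at opposed peaks, or with the spread of Tconv alone, was not simulated.

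Whether replicate numbers pair samples was tested by the correlation of same-numbered KO and wild-type deviations from their group means. In naive HP1α cells it was 0.51, 0.25 and 0.28 for replicates 1, 2 and 3, over the 0.1 that was required of every pair, and there the replicate block called 0 opposed peaks, as without it. In HP1γ cells with Treg it was 0.28, 0.15 and 0.32, and there no test was made. The pairing comes from the data alone.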

Additional observations from a re-analysis of the deposited data

Results flagged for a closer look

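The effect of HP1γ loss differed between Tconv and naive cells, by the interaction test of edgeR, at 25 opposed peaks, each with the lower value in Tconv. The effects of HP1γ and HP1α loss differed in naive cells at 4 opposed peaks, with the higher value for HP1γ, and in Tconv at 17, with the lower value for HP1γ. As given with these counts above, each of the 3 changed to 0 without single libraries.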

How the results depend on the processing

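Of the 6 HP1α libraries with Treg, 3 did not enter the analysis of the study, and the depth of a further one gave a median of 1 read per opposed peak. The number of opposed peaks was 5370 with GC offsets, 3894 with at least 10 reads on average in HP1α wild type, 2114 at a threshold of 1 and, in an alternative chosen after seeing the data, 3362 with a prior count not scaled to library size. It ranged from 6346 to 12281 over the left-out libraries. Other settings (TMM, offsets on mean abundance, priors of 0.5 and 10) gave 5571 to 8579. The share at a TSS was 4.37% within 0.5 kb and 10.5% within 2 kb. DESeq2 called 1 opposed peak higher and 1 lower in HP1α KO Tconv, and leaving out HP1α libraries gave 0 to 1 higher (1 without wild-type replicate 3). From naive cells to Tconv in HP1α wild type, 1066 closed with library size alone and 2625 with depth as a covariate. In naive HP1γ KO, higher calls numbered 153 with DESeq2, 20 with the libraries with Treg in the fit, 2 with depth as a covariate and 56 with the compared groups alone, and 2 to 145 over left-out libraries; lower calls numbered 4 with DESeq2, 3 with offsets on mean abundance and 11 with the compared groups alone. In HP1γ KO Tconv, lower calls numbered 409 with DESeq2, 139 with the libraries with Treg in the fit, 495 with offsets on mean abundance and 30 with the compared groups alone, and 32 to 634 over left-out libraries. Higher calls there numbered 63, 3, 8 with depth as a covariate, 1 with the compared groups alone, and 2 to 63 over left-out libraries. For the HP1γ interaction, lower calls numbered 380 with DESeq2, 66 with GC offsets, 1 with the libraries with Treg, 15 with library size alone, 95 with offsets on mean abundance and 0 with depth as a covariate, and 0 to 232 over left-out libraries. Higher calls numbered 31, 2 with GC offsets, 5 with offsets on mean abundance and 0 to 11 over left-out libraries. For HP1γ minus HP1α in naive cells, higher calls numbered 27 with DESeq2, 2 with offsets on mean abundance, 1 with depth as a covariate and 0 to 17 over left-out libraries. In Tconv, lower calls numbered 149 with DESeq2, 65 with GC offsets, 6 with the libraries with Treg, 8 with library size alone, 100 with offsets on mean abundance and 2 with depth as a covariate, and 0 to 221 over left-out libraries. Higher calls there numbered 24, 1 with GC offsets and 0 to 267 over left-out libraries. The cause of these changes was not tested. The median of the opposed peaks changed sign in HP1α KO Tconv (-0.16, and 0.01 with loess offsets on mean abundance), in HP1α wild type between naive cells and Tconv (-0.08, and 0.18 with library size alone and 0.05 without Tconv wild-type replicate 1) and in HP1γ minus HP1α in Tconv (-0.07, and 0.08 with library size alone and up to 0.03 without single libraries). In naive HP1α cells it lay from -0.03 to 0.02. Outside naive HP1α cells and the HP1γ libraries with Treg, which were not tested, the samples share only a number, since some pair was under 0.1, and with the replicate block, higher calls were 29 in naive HP1γ KO (30 with GC offsets), 13 in HP1γ KO Tconv and 2 for the HP1γ interaction (2 with GC offsets), while lower calls were 143 for the interaction (160 with GC offsets) and 44 for HP1γ minus HP1α in Tconv (122 with GC offsets, and 2 higher); in naive cells 8 were higher with GC offsets. Of the KO libraries, 2 of 3 in naive HP1α, 1 of 3 in HP1α Tconv, 1 of 3 in naive HP1γ and 2 of 3 in HP1γ Tconv correlated best with their own number.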
